A study of Mus musculus with 48 samples.

Results

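A set of 9 genes of lipoprotein particles and lipid export was followed in mouse astrocyte RNA: the particle proteins Apoe and Clu, the efflux transporters Abca1 and Abcg1, the enzymes Lcat and Lpl, and the receptors Lrp1, Lrp4 and Vldlr. They were chosen by symbol, and all 9 were found among the 24421 rows of each of the 6 tables. The choice was made with earlier results of these data known, so shares of all genes beside their counts are descriptive and test nothing. Bulk RNA-seq was made from astrocytes of cortex, hippocampus and olfactory bulb at postnatal day 1 (P1), P7 and P14, and from astrocytes of Gabbr1 control and Gabbr1 cKO mice at P28, cKO being a conditional knockout of the gene for a GABA-B receptor subunit. Each developmental group held 3 libraries except cortex P14 with 4. The P28 groups held 4 control and 4 cKO libraries in cortex, 2 and 4 in hippocampus and, in olfactory bulb, 3 of each. The labels give no genotype for the developmental samples and no strain. They give tamoxifen for all hippocampus and olfactory bulb P28 samples, control and cKO alike, and for the 3 cortex P28 samples of the later round of deposit, namely control replicates 3 and 4 and cKO replicate 4. They do not name the Cre driver, how the astrocytes were separated, or whether libraries came from separate animals, so p-values measure the spread between these libraries, which may be technical. Replicate numbers follow accession order.

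Astrocytes are the main source of lipoprotein particles in the brain, which resemble high-density lipoprotein and carry cholesterol and phospholipid to other cells. Abca1 and Abcg1 pass lipid to the apolipoproteins, Lcat esterifies cholesterol on the particle, Lpl hydrolyses triglyceride, and receptors of the low-density lipoprotein receptor family, such as Lrp1 and Vldlr, take particles up or signal. Liver X receptors (LXR) are known activators of Abca1, Abcg1 and Apoe.

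Reads assigned to genes ranged from 4828515 to 15008466 a library in the developing cortex, 2539583 to 8986015 in the developing hippocampus and 1773226 to 9062118 in the developing olfactory bulb. At P28 the ranges were 2726163 to 4454629, 2963861 to 6352384 and 1859933 to 5285132. The ribosomal RNA gene Rn45s took 13.7% to 38.0% of reads in 46 libraries, but 0.594% in cKO replicate 2 of the P28 hippocampus and 0.476% in control replicate 2 of the P28 olfactory bulb. All 10 astrocyte markers had reads in every group. Their summed level was higher at P14 than at P1, in cortex from 23473 to 30867 at P1 to 520041 to 576793 at P14. The hippocampal sums went from 14305 to 16763 to 444328 to 477363, and those of the bulb from 5756 to 7955 to 145270 to 160386. Markers of other cells were present too, and in bulk RNA fewer cells of a type and less RNA per cell cannot be told apart.

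On mm10 (GENCODE vM21 gene models), Apoe lies at chr7:19696109-19699188 on the minus strand, Clu at chr14:65968483-65981547 on the plus strand, Abca1 at chr4:53030787-53159895 on the minus strand and Abcg1 at chr17:31057675-31117988 on the plus strand. Lcat lies at chr8:105939551-105943382 on the minus strand and Lpl at chr8:68880491-68907448 on the plus strand. The receptor genes are Lrp1 at chr10:127538161-127621148 on the minus strand, Lrp4 at chr2:91457511-91513779 on the plus strand and Vldlr at chr19:27216484-27254231 on the plus strand. Antisense genes overlap Lcat (Gm16156) and Lrp1 (Gm16217) and have no row here, and without a stated strand setting their reads cannot be told apart from those of Lcat and Lrp1.

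Promoter windows were taken from RefSeq (GRCm38.p6, the mm10 build), which matched 5 of the 9 genes (Abca1, Apoe, Lcat, Lrp1 and Vldlr). The windows printed here run 5′ to 3′ on the gene's strand, from 250 bases before to 50 after the start site. They are those of Apoe and Lcat, which rose in each interval in each region, and of Abca1, which rose from P1 to P7 in cortex and hippocampus and fell from P7 to P14 in cortex. The Apoe window spans chr7:19699139-19699438, that of Abca1 chr4:53159846-53160145 and that of Lcat chr8:105943353-105943652, all on the minus strand. Capitals mark motif matches.
Apoe: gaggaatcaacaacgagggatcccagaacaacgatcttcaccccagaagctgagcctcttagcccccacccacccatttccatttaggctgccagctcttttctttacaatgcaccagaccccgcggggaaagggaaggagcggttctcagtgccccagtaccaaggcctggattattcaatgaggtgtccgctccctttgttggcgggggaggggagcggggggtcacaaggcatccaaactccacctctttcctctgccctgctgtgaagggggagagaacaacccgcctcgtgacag
Abca1: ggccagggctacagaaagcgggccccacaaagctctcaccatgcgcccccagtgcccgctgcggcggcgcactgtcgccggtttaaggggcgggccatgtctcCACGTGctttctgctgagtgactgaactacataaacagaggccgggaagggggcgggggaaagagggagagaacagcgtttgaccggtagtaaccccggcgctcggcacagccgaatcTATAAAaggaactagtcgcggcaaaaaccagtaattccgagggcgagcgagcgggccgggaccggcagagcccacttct
Lcat: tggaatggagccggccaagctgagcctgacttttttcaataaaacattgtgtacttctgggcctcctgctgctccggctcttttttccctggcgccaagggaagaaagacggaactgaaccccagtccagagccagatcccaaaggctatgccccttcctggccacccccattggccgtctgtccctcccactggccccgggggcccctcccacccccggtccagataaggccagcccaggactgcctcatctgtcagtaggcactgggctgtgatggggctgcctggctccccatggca
The motifs searched, on both strands, were the nuclear receptor half-site AGGTCA, the E-box CACGTG, the sterol regulatory element TCACNCCAC and TATAAA. Only these exact letters were matched, with N as any base. A window without a match, also one of a gene activated by LXR, may therefore still hold a variant site. The printed Abca1 window holds CACGTG from -147 and TATAAA from -29, with no overlap between them, and the printed Apoe and Lcat windows hold none of the 4. Of 32851 windows of the same length, 16.3% hold AGGTCA, 7.15% CACGTG, 1.24% TCACNCCAC and 13.6% TATAAA.

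The first question the design poses is how the genes change with postnatal age in each region. Levels below are normalized read counts, gene read counts divided by 1 size factor per library within a table, so levels are compared within a region only. Differences are on the scale of log2(value + 1) with their standard error (SE), and "rose" or "fell" means an adjusted p under 0.05 in limma. Genes with a mean of at least 10 over a table were tested. All 9 reached it in each developmental table, but only through other ages for Lpl in cortex and olfactory bulb and Abcg1 in hippocampus (P14 means of 8.27, 4.498 and 6.46) and Lcat in olfactory bulb (P1 mean of 7.29). In cortex 7 of the 9 genes rose and 0 fell from P1 to P7, against 15.6% and 18.1% of all 11822 genes tested. From P7 to P14, 5 rose and 3 fell, against 18.6% and 31.3%. Between P1 and P14, 7 rose and 2 fell, against 24.0% and 40.3%. Under TMM scaling the splits over all cortex genes were 18.3% higher and 14.1% lower, 25.7% and 23.0%, and 32.2% and 30.9%. In hippocampus 7 rose and 0 fell (11.2% and 6.92% of 11578 genes), then 6 rose and 2 fell (12.5% and 17.7%), and from P1 to P14 7 rose and 1 fell (21.0% and 28.5%). In olfactory bulb 4 rose and 0 fell (7.59% and 2.98% of 11490 genes), then 6 rose and 2 fell (20.4% and 26.6%), and from P1 to P14 6 rose and 3 fell (24.8% and 31.4%). The median P14 against P1 difference of the 9 genes was 1.49 (cortex), 1.90 (hippocampus) and 1.74 (olfactory bulb), beside -0.27, -0.29 and -0.24 over all genes tested. The change of the second interval was also tested against that of the first. It was below it for 2 members in cortex (13.2% of all genes), Abca1 and Lpl, and for 3 in hippocampus (4.47%), Abca1, Apoe and Clu. It was above it for 1 in olfactory bulb (6.22%), Lrp4. TMM scaling moved the cortex median of all genes from -0.27 to 0.00, and each member that rose or fell between P1 and P14 in cortex kept its direction and its call under it.

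**Figure D1:**
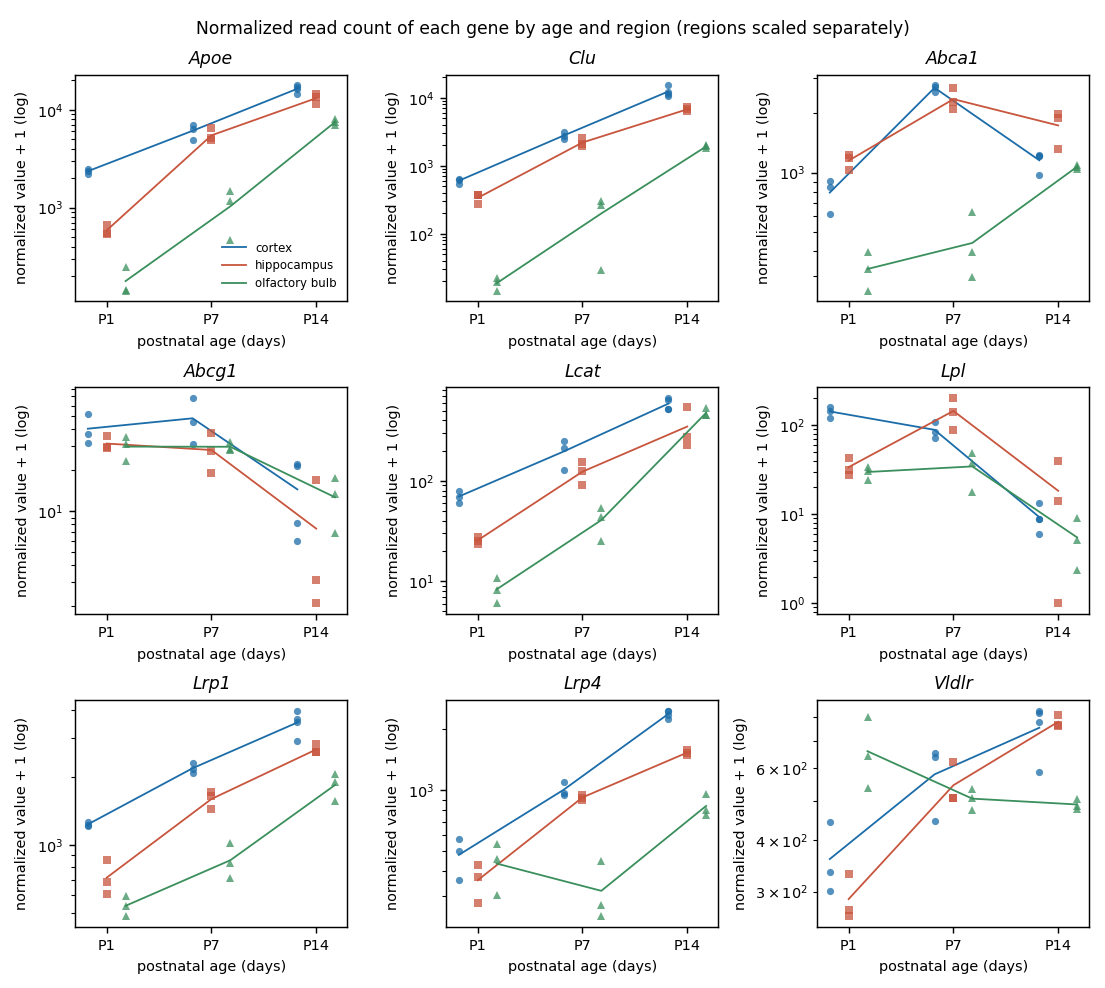
Normalized read count (log axis, value + 1) of each of the 9 genes against postnatal age in days, 1 point per library and lines through group means, with cortex, hippocampus and olfactory bulb in separate colours and scaled separately by the authors. Apoe, Clu, Lcat and Lrp1 climb from P1 to P14 in each region, Abca1 peaks at P7 in cortex and hippocampus, and Abcg1 and Lpl are lowest at P14.

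Apoe, the main apolipoprotein of brain lipoproteins, rose in both intervals in each region. Under quantile normalization its hippocampal rise from P7 to P14 lost its call. In cortex Apoe stood at 2507, 2358 and 2205 at P1, at 6310, 7047 and 4955 at P7, and at 16113, 17978, 14598 and 16881 at P14. In hippocampus the P1 libraries held 658, 543 and 557, those of P7 5109, 4893 and 6440, and those of P14 13482, 11410 and 14529. No group overlapped the next in either region. In olfactory bulb Apoe started at 141.6, 248 and 141.7, reached 1161, 1465 and 469 at P7, and stood at 6991, 7523 and 7976 at P14. The P1 to P14 difference was 2.80 (SE 0.12, adjusted p 3.07e-10) in cortex, against 4.48 (SE 0.14, adjusted p 1.19e-09) in hippocampus and, in the bulb, 5.45 (SE 0.36, adjusted p 6.01e-07). Most of the hippocampal change fell in the first interval: the later change was 1.26 and the earlier one 3.22, a difference of -1.95 (SE 0.24, adjusted p 0.00198). In cortex the 2 changes, 1.36 and 1.44, differed by 0.08 (95% interval -0.37 to 0.53), and under quantile normalization this difference was -0.82 (adjusted p 0.00086).

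Clu, clusterin or apolipoprotein J, a chaperone-like protein carried on the same particles, also rose in both intervals in each region. Its cortical level was 547, 649 and 608 at P1, 2725, 3142 and 2467 at P7, and 15511, 10545, 11273 and 12245 at P14. In hippocampus it was 371, 367 and 270, then 2084, 1983 and 2523, then 6328, 6758 and 7205. The groups of successive ages did not overlap in these regions. Olfactory bulb libraries held 14, 21 and 18 at P1, 305, 261 and 28 at P7, and 2018, 1939 and 1799 at P14. Replicate 3 of P7 there lay near the P1 level and was also the lowest of its group in Apoe and in summed astrocyte markers, 11840 against 17020 and 21653. Clu changed by 4.35 (SE 0.13, adjusted p 1.77e-11) from P1 to P14 in cortex, by 4.34 (SE 0.15, adjusted p 1.99e-09) in hippocampus and by 6.70 (SE 0.69, adjusted p 1.35e-05) in olfactory bulb. The olfactory bulb change from P1 to P7, 2.85 (SE 0.69, adjusted p 0.0233), lost its call without P1 replicate 1, 2 or 3 (2.68, 2.98 and 2.88; adjusted p 0.0833, 0.0592 and 0.0741) or without P7 replicate 1 or 2 (2.24 and 2.35; adjusted p 0.110 and 0.118), and in limma without the trend (adjusted p 0.0670). Without P7 replicate 3 it was 3.94 (adjusted p 1.07e-05). The later olfactory bulb change, 3.86, was 4.46 without P7 replicate 1 and 2.76 without P7 replicate 3, and was called in both. In hippocampus the later change minus the earlier one was -1.08 (SE 0.25, adjusted p 0.0275), a call lost without P7 replicate 1, 2 or 3 (-1.15, -1.22 and -0.88; adjusted p 0.0945, 0.0861 and 0.141) and in limma without the trend (adjusted p 0.145).

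Apoe is also made by microglia, whose 10 markers all had reads in each developmental group except Trem2, at 0 in olfactory bulb P1. Their summed level in cortex was 415 to 704 at P1, 546 to 1702 at P7 and 1375 to 3142 at P14. The hippocampal sums were 100 to 147, 308 to 1353 and 243 to 662, and those of the bulb 45 to 62, 182 to 397 and 294 to 478. Oligodendrocyte markers were also higher at P14. In cortex their sum was 339 to 393 at P1 and 15273 to 26082 at P14, with reads for 7 of 8 (Opalin at 0) and for 8 of 8. In hippocampus it was 73.7 to 94.0 and then 1614 to 2343, with reads for 6 of 8 at each of these ages (Opalin at 0 at both, Mobp at P1 and Mog at P14). In the bulb it was 114 to 199 and then 1923 to 2252, again with 6 of 8 (Mag and Opalin at 0 at both). Oligodendrocyte precursor markers, 6 of 6 with reads in each group, summed to 363 to 564 at P1 and 926 to 1035 at P14 in hippocampus and to 131 to 168 and 1176 to 1227 in the bulb, while their cortical sums overlapped between these ages. The hippocampal sum did not speak for each precursor marker: 2 of 6 rose and 1 fell between P1 and P14, with a median log2 difference of -0.32. For the bulb 4 of 6 rose and 0 fell, with a median of 2.60. Choroid plexus and ependymal markers in hippocampus summed to 45.4 to 83.3 at P1, with Tmem212 at 0, and to 4070 to 8479 at P14, with Ccdc153 at 0. Their sums overlapped between P1 and P14 in cortex, and in the bulb, where Folr1, Ccdc153 and Tmem212 were at 0, they were 20.8 to 27.3 and then 37.5 to 70.3. Macrophage sums overlapped between P1 and P14 in each region. The part of these cells in the rises of Apoe, Clu, Abca1, Lcat, Lrp1, Lrp4 and Vldlr was not tested.

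Abca1, the transporter that loads lipid onto nascent apolipoprotein particles, had its highest mean at P7 in cortex and hippocampus. In olfactory bulb its mean was highest at P14, the last of the 3 ages. Cortical values were 619, 848 and 907 at P1, 2781, 2721 and 2557 at P7, and 967, 1214, 1221 and 1212 at P14, so the P7 group stood above both others. It rose by 1.78 (SE 0.13, adjusted p 5.79e-07) and then fell by 1.23 (SE 0.13, adjusted p 5.17e-06), ending 0.55 (SE 0.13, adjusted p 0.00162) above P1. In hippocampus the levels were 1188, 1234 and 1026, then 2281, 2688 and 2092, then 1895, 1981 and 1320. There it rose by 1.03 (SE 0.16, adjusted p 0.000962), while the later difference of -0.46 (SE 0.16, adjusted p 0.0536) missed the threshold. That difference passed it in 5 of 21 alternatives: without P14 replicate 1 (-0.53, adjusted p 0.0468) or 2 (-0.57, adjusted p 0.0288), at pseudocount 8 (adjusted p 0.0465), at a minimum mean of 100 (adjusted p 0.0363) and under quantile normalization (-0.95, adjusted p 0.00108). The hippocampal rise from P1 to P14, 0.57 (SE 0.16, adjusted p 0.0122), lost its call without P1 replicate 3 (0.49, adjusted p 0.0552), under quantile normalization (0.13, adjusted p 0.560), without the trend (adjusted p 0.0616) and with array weights (0.53, adjusted p 0.0598). The later change minus the earlier one was -3.01 (SE 0.23, adjusted p 3.88e-06) in cortex and -1.49 (SE 0.28, adjusted p 0.0119) in hippocampus. The hippocampal value lost its call without P7 replicate 1 (-1.52, adjusted p 0.0560) or P7 replicate 2 (-1.29, adjusted p 0.0919) and in limma without the trend (adjusted p 0.0766). In olfactory bulb Abca1 held 252, 395 and 326 at P1, 396, 628 and 294 at P7, and 1069, 1043 and 1095 at P14. P1 and P7 overlapped there, with a difference of 0.39 (95% interval -0.16 to 0.94), and Abca1 rose by 1.35 (SE 0.25, adjusted p 0.00118) from P7 to P14.

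Abcg1, a transporter that adds lipid to more mature particles, fell late. In cortex it held 31, 51 and 36 at P1, 68, 44 and 30 at P7, and 7.2, 5.0, 20 and 21 at P14. Hippocampal levels were 28, 35 and 28, then 37, 27 and 18, then 2.1, 1.1 and 16. In olfactory bulb they were 30, 22 and 34, then 31, 28 and 27, then 6.0, 12 and 17. P1 and P7 overlapped in each region, and the P14 libraries lay below both. The change from P7 to P14 in cortex was -1.89 (SE 0.46, adjusted p 0.0041), that in hippocampus -2.49 (SE 0.72, adjusted p 0.0229) and that in the bulb -1.33 (SE 0.42, adjusted p 0.0231). The hippocampal fall lost its call in 4 of 20 alternatives: without P7 replicate 1 or 2 (-2.25 and -2.47; adjusted p 0.0928 and 0.0763), in a fit of P7 and P14 alone (adjusted p 0.0782) and under quantile normalization (-0.99, adjusted p 0.185). With a library left out its value ran from -3.40 (without P14 replicate 3) to -1.89 (without P14 replicate 2). The difference between P1 and P14 there, -2.70 (adjusted p 0.00886), was likewise -3.61 and -2.09 without these libraries, and was called in both. The olfactory bulb fall lost it without P7 replicate 1, 2 or 3 (-1.27, -1.36 and -1.37; adjusted p 0.0741, 0.0604 and 0.0591), under quantile normalization (-0.72, adjusted p 0.114), with array weights (-1.31, adjusted p 0.0751) and in a fit of the pair of ages alone (adjusted p 0.0849). The fall from P1 there, -1.32 (adjusted p 0.0199), lost it without P1 replicate 1 or 3 (-1.28 and -1.19; adjusted p 0.0688 and 0.0844), with array weights (-1.26, adjusted p 0.0597) and in a fit of the pair of ages alone (adjusted p 0.0591).

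Lcat, which esterifies cholesterol on particles, rose in both intervals in each region. Its cortical level went from 60, 78 and 68 to 246, 211 and 127 and then to 672, 514, 520 and 638. In hippocampus it went from 24, 27 and 23 to 91, 125 and 151.4 and then to 272, 227 and 539. Olfactory bulb libraries held 5.0, 9.7 and 7.2 at P1, 42, 52 and 24 at P7, and 529, 447 and 447 at P14. Successive ages did not overlap in any of the 3 regions. Between P1 and P14 Lcat rose by 3.07 (SE 0.20, adjusted p 1.82e-08) in cortex, while the hippocampal rise was 3.66 (SE 0.33, adjusted p 3.52e-06) and that of the bulb 5.88 (SE 0.34, adjusted p 2.46e-07).

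Lpl, the triglyceride lipase, fell late from low levels. In cortex it held 120, 159.4 and 144.2 at P1, 83, 71 and 108 at P7, and 7.9, 5.0, 12 and 7.8 at P14. Its change to P7, -0.70 (SE 0.29, adjusted p 0.0814), missed the threshold and passed it in 6 of 21 alternatives, with adjusted p from 0.00982 (array weights) to 0.0496 (quantile normalization). Lpl then fell by 3.29 (SE 0.27, adjusted p 8.09e-07). The later change minus the earlier one was -2.59 (SE 0.49, adjusted p 0.00218). In hippocampus Lpl was higher in each P7 library (87, 140 and 202) than at P1 (30, 27 and 41), and P14 libraries held 39, 13 and 0. The first difference there, 2.03 (SE 1.02, adjusted p 0.220), missed the threshold in limma and passed it in 7 of 20 alternatives, among them edgeR's quasi-likelihood test (adjusted p 0.0290), DESeq2 (adjusted p 0.00497), limma without P14 replicate 3 (adjusted p 0.00888) and a fit of P1 and P7 alone (adjusted p 0.000151). Lpl then fell by 4.04 (SE 1.02, adjusted p 0.0114), or by 3.75 (adjusted p 0.0504) without P7 replicate 3. This fall was -5.17 without P14 replicate 1 and -2.52 without P14 replicate 3, the library at 0, and was called in both. Its P14 to P1 difference of -2.01 (adjusted p 0.122) passed without P14 replicate 1 (-3.14, adjusted p 0.0126) and with array weights (-2.29, adjusted p 0.0306), and was -0.48 without P14 replicate 3 (adjusted p 0.436). In olfactory bulb it held 30, 23 and 33, then 36, 47 and 17, and fell to 8.0, 1.4 and 4.2 at P14, by 2.72 (SE 0.57, adjusted p 0.00248) from P7.

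Neurons, microglia and endothelial cells can also hold Abcg1 or Lpl RNA. The 10 neuron markers, all with reads in each group, summed to 7485 to 10650 at P1, 1798 to 4523 at P7 and 287 to 545 at P14 in cortex. In hippocampus the sums were 6034 to 8050, 1644 to 2651 and 444 to 635, and in olfactory bulb 14725 to 18290, 9412 to 14866 and 1968 to 3188. Single neuron markers did not all follow the sums from P1 to P7. Of the 10, 0 rose and 4 fell in cortex, 1 rose and 2 fell in hippocampus (median log2 difference -0.07), and 3 rose and 0 fell in the bulb (median 0.64). From P7 to P14, 8 fell and 0 rose in each region. Endothelial and mural markers in hippocampus summed to 172 to 324, 658 to 1094 and 144.03 to 249.02, with Cldn5 and Acta2 at 0 at P14. In the bulb they were instead higher at P14, with sums of 88.2 to 111, 330 to 357 and 380 to 1887 (Acta2 at 0 at P14), and in cortex the sums of 106 to 807, 639 to 836 and 345 to 1303 overlapped between ages. Neuron marker sums were thus lowest at P14 in each region, as the means of Abcg1 and Lpl were. Median sums of endothelial, microglia, macrophage and oligodendrocyte precursor markers were each highest at P7 in hippocampus, as the mean of Lpl was. For the bulb the endothelial and precursor medians were highest at P14, where Lpl and Abcg1 were lowest, and those of microglia and macrophages at P7. Cortical medians were highest at P7 for endothelial and precursor markers, at P14 for microglia and at P1 for macrophages. Their part in these falls was not tested.

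Lrp1, a large endocytic receptor for Apoe-bearing particles, rose in both intervals in each region, though its later hippocampal rise lost its call under quantile normalization. Its mean level was 1236 ± 28.6 (SD, n = 3) at P1, 2195 ± 113 (n = 3) at P7 and 3503 ± 442 (n = 4) at P14 in cortex. The hippocampal means were 717 ± 128, 1602 ± 143.1 and 2659 ± 121 (n = 3 each), and those of olfactory bulb 537 ± 54.7, 856 ± 155.4 and 1850 ± 259 (n = 3 each). Successive ages did not overlap in any region. From P1 to P14 it rose by 1.49 (SE 0.10, adjusted p 2.26e-08), 1.90 (SE 0.14, adjusted p 5.66e-07) and 1.78 (SE 0.16, adjusted p 5.52e-06). The olfactory bulb change from P1 to P7, 0.66 (SE 0.16, adjusted p 0.0243), lost its call without P1 replicate 2 or 3 (0.66 and 0.59; adjusted p 0.0818 and 0.110) or without P7 replicate 1 or 2 (0.68 and 0.53; adjusted p 0.0760 and 0.113), and in limma without the trend (adjusted p 0.0953).

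Lrp4, known as the agrin receptor of the neuromuscular junction and also expressed by astrocytes, rose in both intervals in cortex and hippocampus. Its hippocampal rise from P7 to P14 lost its call under quantile normalization. Cortical means were 480 ± 111, 1007 ± 83.8 and 2385 ± 112 (SD, n = 3, 3 and 4), a rise of 2.34 (SE 0.13, adjusted p 5.30e-09) from P1 to P14. Hippocampal means were 359 ± 74.9, 923 ± 25.0 and 1538 ± 50.3 (n = 3 each), a rise of 2.12 (SE 0.15, adjusted p 5.20e-07). In olfactory bulb it held 304, 542 and 459 at P1, 272, 446 and 238 at P7, and 797, 958 and 758 at P14. P1 and P7 overlapped there (difference -0.46, 95% interval -1.03 to 0.10), and Lrp4 then rose by 1.44 (SE 0.26, adjusted p 0.000969). The later change exceeded the earlier one by 1.90 (SE 0.45, adjusted p 0.0166), a call lost without P7 replicate 1 or 3 (1.72 and 1.54; adjusted p 0.0846 and 0.0831) or without the trend (adjusted p 0.0528). The rise from P1 to P14 there, 0.98 (adjusted p 0.00747), lost its call with array weights (0.92, adjusted p 0.102).

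Vldlr, a receptor for Apoe-rich particles and for reelin, rose with age in cortex and hippocampus. In olfactory bulb it was lower at P14 than at P1, a call that most alternatives lost. In cortex it held 443, 334 and 300 at P1, 446, 637 and 654 at P7, and 588, 817, 778 and 830 at P14. In hippocampus it held 330, 260 and 270, then 622, 506 and 506, then 810, 764 and 761. In olfactory bulb the values were 643, 537 and 800, then 475, 508 and 533, then 505, 484 and 478, so P7 and P14 overlapped and both lay below P1. The P1 to P14 difference was 1.07 (SE 0.17, adjusted p 8.26e-05) in cortex and 1.45 (SE 0.14, adjusted p 8.05e-06) in hippocampus. In olfactory bulb it was -0.41 (SE 0.15, adjusted p 0.0377), and 12 of 21 alternatives lost this call. Among them were edgeR (adjusted p 0.0733), DESeq2 (adjusted p 0.0628), array weights (-0.38, adjusted p 0.275, the highest) and 5 of the 9 fits with a library left out, of which the smallest difference was without P1 replicate 3 (-0.27, adjusted p 0.183). The cortical change from P7 to P14, 0.39 (SE 0.17, adjusted p 0.0726), passed in 7 of 23 alternatives, among them TMM scaling (0.58, adjusted p 0.0125), edgeR (0.52, adjusted p 0.0221), DESeq2 (0.54, adjusted p 0.00592) and the fits without P1 replicate 1 (0.39, adjusted p 0.0442) or P14 replicate 1 (0.50, adjusted p 0.0267). In hippocampus the change from P7 to P14 of Vldlr, 0.52 (SE 0.14, adjusted p 0.0183), lost its call without P7 replicate 2 or 3 (0.47 and 0.47; adjusted p 0.0838 and 0.0601), under quantile normalization (0.19, adjusted p 0.381), without the trend (adjusted p 0.0694) and with array weights (0.51, adjusted p 0.131). Levels of different regions come from separate tables, and no test of the difference between regions was made.

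**Figure D2:**
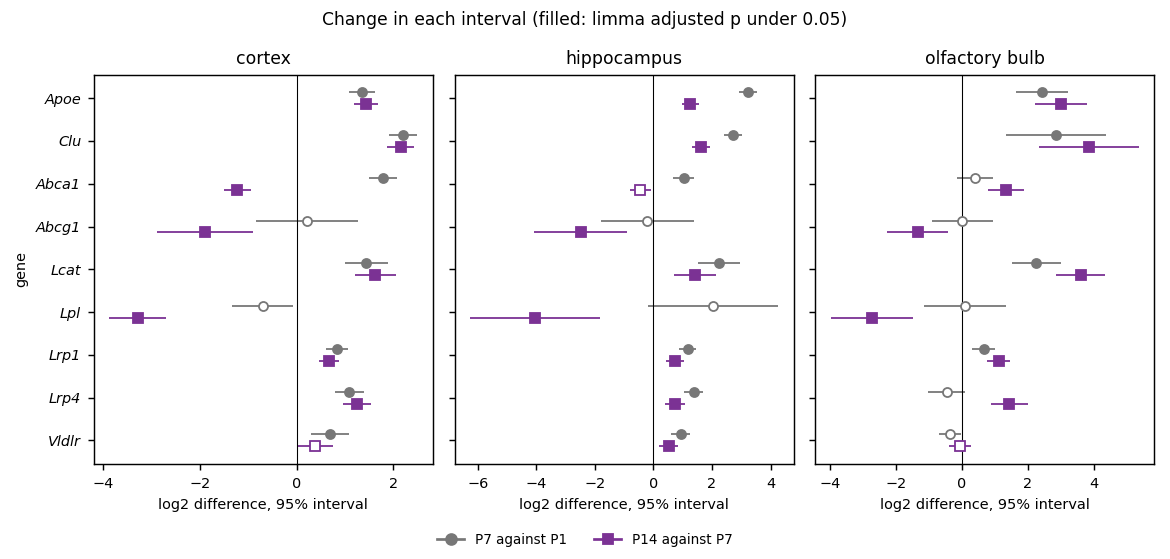
Log2 difference with its 95% interval for each of the 9 genes in the first interval (P7 against P1, circles) and in the second (P14 against P7, squares), with 1 panel per region and filled symbols for an adjusted p under 0.05 in limma. Abca1 lies above 0 in the first interval and below 0 in the second in cortex and hippocampus, while in olfactory bulb its second change is 1.35.

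Per kilobase of exon, which allows genes to be compared, Apoe ranked 7 of the 11393 cortical genes with a length at P14, 7 of the 11160 hippocampal ones and 13 of the 11082 of olfactory bulb. At P1 it had ranked 56, 197 and 1057. Clu ranked 22 and 31 at P14 in cortex and hippocampus after 552 and 851 at P1, and in the bulb it moved from 8721 into the top 0.920%. Lcat ranked 240, 382 and 188 after 2419, 5176 and 8568. Both particle proteins were thus among the genes with the highest level per kilobase at P14 in cortex and hippocampus. The receptors ranked lower at P14: Lrp4 515, 751 and 1381, Lrp1 608, 723 and 990, and Vldlr 1731, 1583 and 2286. Abca1 ranked 1143, 627 and 1016, while Abcg1 (10459, 10562 and 10339) and Lpl (11042, 10162 and 10880) stood near the bottom of the genes tested.

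Over the 28 developmental libraries, with each region centred on its mean, the profiles most like each member among 10434 genes were described by Pearson's r, the libraries sharing age and region structure. Apoe was most like Ttyh1 and Lsamp (both 0.990), Clu like Tuba4a (0.982) and Hepacam (0.980), and Lcat like Hepacam (0.986) and Ttyh1 (0.985). Lrp1 was most like S100b (0.981) and Slc1a2 (0.980), both astrocyte markers, and Lrp4 like Tmem176b (0.961) and Scg3 (0.956). The other 4 had less close neighbours: Abca1 with Zfp36l1 (0.919) and Adgrg1 (0.918), Abcg1 with Lig3 (0.908) and Wsb1 (0.905), Lpl with Cacna1e (0.906) and Rnpc3 (0.905), and Vldlr with Gabbr1 (0.890) and Nrcam (0.888). Among the members themselves, Apoe and Clu had an r of 0.974 and Apoe and Abca1 one of 0.653.

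A further 64 genes of lipid carriage and handling were grouped as apolipoproteins, transporters, receptors, enzymes and regulators. Between P1 and P14, 22 of the 49 tested rose and 8 fell in cortex, 16 of 45 rose and 8 fell in hippocampus, and 26 of 47 rose and 6 fell in olfactory bulb, against the shares of all genes given above. The enzyme genes named by rule rose in all 3 regions. Cyp46a1, which makes 24-hydroxycholesterol, differed by 1.51 (cortex), 1.49 (hippocampus) and 3.03 (bulb), and Soat1, which esterifies cholesterol inside cells, by 1.22, 1.11 and 1.92. Lpcat3, a phospholipid acyltransferase, differed by 0.99, 1.28 and 1.49, and Sel1l, of the endoplasmic reticulum degradation machinery, by 0.67, 0.73 and 0.47. Of the receptors, Lrp8, the apolipoprotein E receptor 2, fell in each region, by 0.95, 1.95 and 1.67. Its relative Lrp12 fell by 1.51, 2.94 and 2.98, while Lrp1b rose by 0.65, 2.58 and 5.34 and Lrp10 by 1.07, 0.79 and 2.37. Vldlr and Lrp8, the pair of reelin receptors, thus had opposite directions in cortex and hippocampus. Among regulators, Ppara and Ppard, nuclear receptors of fatty acids, rose by 2.22, 2.22 and 2.90 and by 1.30, 2.44 and 2.79, and the coactivator gene Ppargc1a by 1.30, 2.39 and 2.63. Of the transporter genes, Abca2 rose in all 3 regions, by 0.73, 1.62 and 1.00, as did Npc2, which moves cholesterol out of lysosomes, by 0.79, 1.09 and 0.97. No listed apolipoprotein was called in 1 direction in all 3 regions, and 4, 3 and 3 of 11 were tested. The highest adjusted p among the named genes in any region was 0.0337, for Lrp10.

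**Figure D3:**
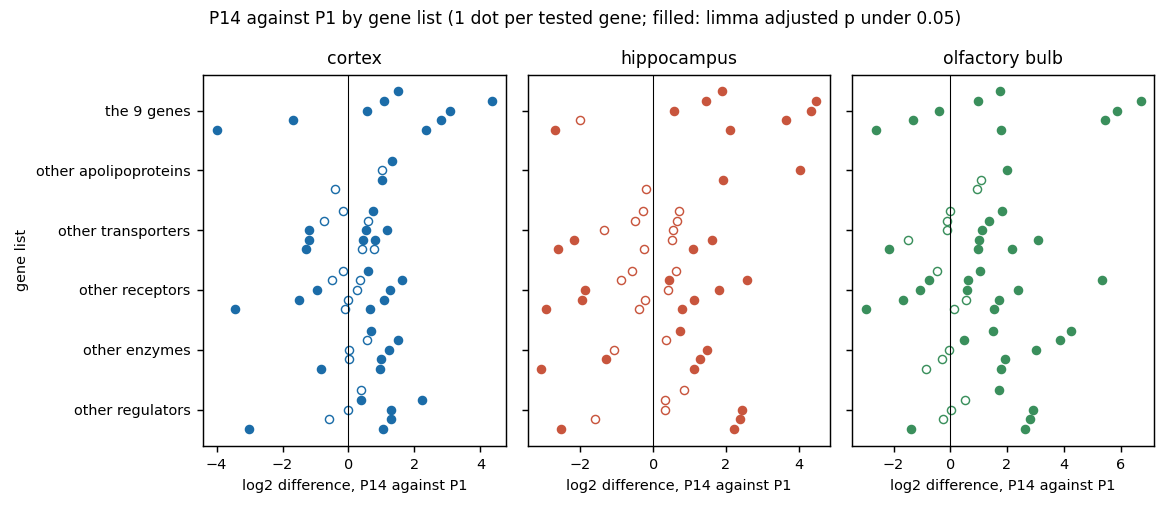
Log2 difference between P14 and P1 for each tested gene of the 9 members and of the 5 lists of other lipid genes, 1 dot per gene and 1 panel per region, filled where the adjusted p in limma was under 0.05. The members Apoe, Clu and Lcat lie at 2.80 or above in each panel, and the other lists hold genes on both sides of 0.

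The second question is whether loss of Gabbr1 in astrocytes changes these genes at P28. Gabbr1 itself checks the labels. In cortex it held 1746, 1930, 1159 and 927 in control and 90, 97, 134 and 211 in cKO libraries, a difference of -3.45 (SE 0.29, adjusted p 4.40e-05). In hippocampus the levels were 780 and 824 against 167, 380, 151.7 and 256, and in olfactory bulb 318, 184 and 189 against 64, 100 and 78. The groups did not overlap in any region. The differences of -1.84 in hippocampus (adjusted p 0.936) and -1.48 in olfactory bulb (adjusted p 0.877) missed the threshold, and the hippocampal one passed it with array weights (-1.99, adjusted p 0.00657) and without cKO replicate 2 (-2.10, adjusted p 0.0296).

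In none of the regions did a member pass the threshold in limma: 0 of the 7 tested in cortex, 0 of the 8 in hippocampus and, in the bulb, 0 of 9. Of all genes, 0.00982% (1 of 10188, Gabbr1) passed in cortex, 0% of 11639 (hippocampus) and 0% of 11539 (olfactory bulb), and 221, 296 and 349 had an unadjusted p under 0.05. The members with such a p were 0 in cortex, 1 in hippocampus (Lcat) and 0 in olfactory bulb. edgeR and DESeq2, run for cortex and hippocampus, passed 0 members. On simulated data in the layout of P28 cortex, limma called 31% of changes of 1 log2 unit and 95% of changes of 2. For the layout of P28 hippocampus it called 0% and 51%. Changes were simulated only in genes with a mean of at least 100, a level that Abcg1 and Lpl did not reach at P28. The P28 layout of olfactory bulb was not simulated. A missed threshold alone therefore does not show that a gene was unchanged. Abcg1 and Lpl in cortex and Lpl in hippocampus were under the minimum mean and not tested, with highest values of 24, 4.8 and 12.

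In cortex the genotypes overlapped for each of the 9 genes, and 1.89% of all genes tested had groups that did not overlap. The particle proteins had wide spreads there. Apoe held 13336, 13882, 9323 and 6685 in control and 13722, 13200, 13336 and 6116 in cKO, a difference of 0.09 (95% interval -0.54 to 0.71). In each group the lowest values came from the later round of deposit, control replicates 3 and 4 and cKO replicate 4. Within the first round alone, 2 control and 3 cKO libraries, the Apoe difference was -0.02. Clu held 10512, 12989, 8628 and 8244 against 11366, 10642, 10472 and 7585, a difference of 0.00 (95% interval -0.46 to 0.45), and -0.11 within the first round. Within that round Abca1 differed by 0.36, Lcat by 0.34, Lrp1 by -0.11, Lrp4 by -0.09 and Vldlr by 0.07, each with an adjusted p of 0.834 or more. With all libraries the other intervals were -0.44 to 0.70 for Abca1, -0.26 to 0.66 for Lcat, -0.48 to 0.45 for Lrp1, -0.43 to 0.32 for Lrp4 and -0.53 to 0.38 for Vldlr.

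In hippocampus Lcat held 171 and 210 in control and 430, 936, 402 and 308 in cKO libraries. All cKO libraries were higher, a difference of 1.32 (SE 0.42, 95% interval 0.36 to 2.27) with an adjusted p of 0.936 in limma, or 0.99 (adjusted p 0.840) without cKO replicate 2, the library low in Rn45s. The summed astrocyte markers were 173160 and 193885 in control and 261884, 395849, 199653 and 134438 in cKO, and the 4 cKO libraries have the same order in both. Across genotypes the order is not the same, with cKO replicate 4 lowest of all these libraries in astrocyte sum and above both controls in Lcat (308). The part of astrocyte content in the Lcat difference was not tested. Choroid plexus and ependymal markers, 7 of 8 with reads in control (Tmem212 at 0) and 8 of 8 in cKO, summed to 139053 and 67746 in control and 50847, 11252, 71681 and 126906 in cKO. Their part was not tested. Abca1 (849 and 810 against 857, 950, 980 and 1041), Lrp4 (781 and 605 against 1085, 916, 1087 and 801) and Vldlr (316 and 301 against 320, 406, 335 and 356) were also higher in each cKO library. These 4 of 8 tested members stand beside 7.08% of all genes whose cKO libraries were all higher. Marker sums of other cells were also higher in each cKO library for endothelial and mural cells (264 and 310 against 666, 690, 414 and 498, 10 of 10 with reads in both genotypes) and microglia (163 and 127 against 178, 364, 232 and 866, with Trem2 at 0 in control). Their part in these differences was not tested, and the sums of the other lists overlapped. Apoe (8219 and 9636 against 12707, 5531, 10301 and 6684) and Clu (8887 and 9623 against 11991, 9493, 9893 and 8456) overlapped.

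In olfactory bulb Abca1 held 1005, 703 and 1890 in control and 1803, 1676 and 1825 in cKO, a difference of 0.68 (95% interval -0.02 to 1.39, adjusted p 0.877). The highest single value was in a control library, so the groups overlapped. The lowest, 703, was in control replicate 2, the library low in Rn45s. Apoe held 14503, 6051 and 10324 against 14698, 13231 and 14065 (difference 0.53, 95% interval -0.14 to 1.203), its lowest value lying in control replicate 2, the library low in Rn45s. Abcg1 was lower in each cKO library (26, 24 and 42 against 17, 20 and 18), the 1 member of 9 whose groups did not overlap, beside 4.71% of all genes with all cKO libraries lower. Lpl held 14, 46 (control replicate 2) and 6.6 against 0, 7.0 and 4.3, a difference of -2.32 with an interval of -4.92 to 0.29. It reached the minimum mean of 10 only through the control libraries (means of 22.1 and 3.77), so its being tested depended on the group where it was high. Clu, Lcat, Lrp1, Lrp4 and Vldlr differed by 0.33, 0.06, 0.02, 0.07 and -0.21, and each interval included 0. None of the 64 other lipid genes passed the threshold in any region, with 45, 47 and 46 tested.

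**Figure D4:**
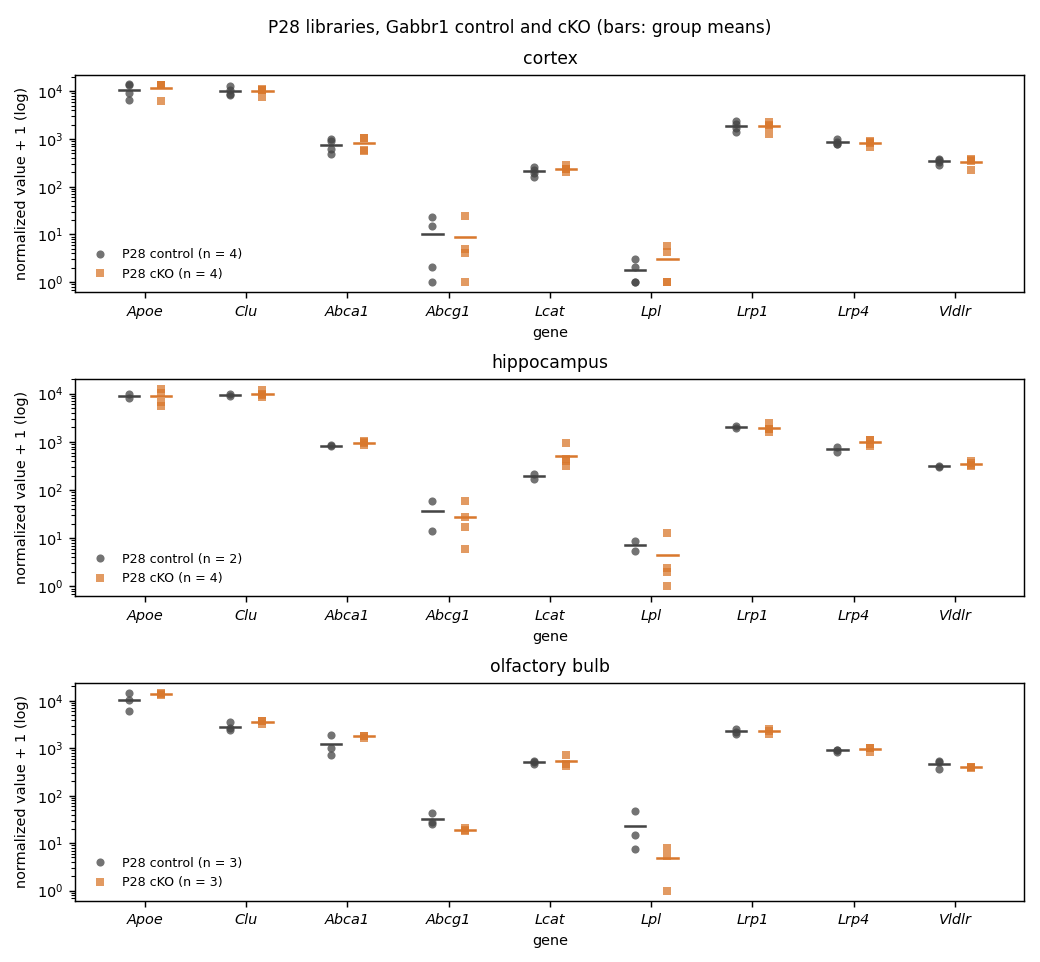
Normalized read count plus 1 (log axis) of the 9 genes in each P28 library, Gabbr1 control beside cKO, with bars at group means and 1 panel per region. The genotypes overlap for 9 of 9 genes in cortex, and in hippocampus the 4 Lcat values of cKO libraries, 308 to 936, lie above the control values of 171 and 210.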

How the data were processed

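Bulk RNA-seq of 48 mouse astrocyte libraries was used, as 6 tables. Libraries were made with the Trio RNA-seq kit from small amounts of total RNA, per the labels' protocols. The authors deposited signal values, gene read counts divided by 1 size factor per library and table. STAR 2.5.0a, DESeq2 1.20.0, FastQC, MultiQC and mm10 are named in the submitters' processing notes, and the counter, annotation and strand setting are not given in the sources used here. Date-like symbols stood in 5 tables (27 in each) and no member was among them. Reads were recovered from the steps of the values, which gave the depths.

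Values were tested as log2(value + 1) with limma 3.58.1 (R 4.3.3, trended eBayes, two-sided), for genes with a mean of at least 10 over the table. The 3 ages of a region shared 1 fit, p-values were adjusted by Benjamini-Hochberg over all genes tested, and the threshold was 0.05. Tables were not tested against each other. A contrast within each regional fit tested the later change against the earlier one. Alternatives were other pseudocounts, filters, scalings and weights, edgeR 4.0.16 and DESeq2 1.42.0 on recovered reads, other sets of libraries and each library left out. The fitting code was tested on simulated data, with the shares called at P28 given above. The members, lists, markers and motifs were chosen with earlier results of these data known. Named pathway genes were those called in 1 direction between P1 and P14 in all 3 regions, at most 4 a list by mean size of the difference, and any called at P28. For each member the 2 genes with the highest correlation over developmental libraries were named. Gabbr1 was named as the check of the labels. Intervals cover 95%.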

Additional observations from a re-analysis of the deposited data

Results flagged for a closer look

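Of 36 combinations of a member gene and a group of 4 libraries, tested for a library far from the others, 5 had one. Chance gives about 1 in 20, but the tests share libraries and are not independent. Apoe, Vldlr and Abcg1 were flagged in the same library. Groups with fewer libraries were not tested in this way. Abca1 in cortex P14 replicate 1 was 967, below 1212 to 1221 in the others. In cortex P28 cKO replicate 4, the only cKO library of the later round of deposit, Apoe was 6116 and Vldlr 221, both the lowest of the group, and Abcg1 was 24.0, the highest. The summed macrophage markers of that library were 805 against 5 to 30 in the other cKO libraries, and the microglia markers summed to 1915 against a group median of 215. Lpl in hippocampus P28 cKO replicate 4 was 11.6, the highest of its group.

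For 4 changes with age, regions differed in direction, and within each region the libraries of the ages compared did not overlap. The difference between the regions was not tested, since their tables were scaled separately. Both Lpl differences below missed the threshold, as did that of Vldlr in olfactory bulb from P1 to P7 and that of Abca1 in hippocampus. From P1 to P7, Lpl differed by -0.70 in cortex and 2.03 in hippocampus. Over the same interval Vldlr differed by 0.69 in cortex and 0.92 in hippocampus against -0.37 in olfactory bulb. Between P7 and P14 Abca1 differed by -1.23 in cortex and -0.46 in hippocampus against 1.35 in olfactory bulb. Between P1 and P14 Vldlr differed by 1.07 and 1.45 against -0.41.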

How the results depend on the processing

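The 75 log2 differences of members and Gabbr1 that passed the threshold gave 1602 values under the alternatives: 1540 passed in the same direction, 62 missed the threshold and 0 changed sign. The 60 that missed it gave 1182 values, of which 50 passed in the same direction and 72 changed sign, 32 under other settings and 40 with a library left out. Of the 72, 1 passed, Apoe in cortex under quantile normalization, where the later change minus the earlier was -0.82. The cause of these changes was not tested.

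Counts of members that passed moved by over 1.5 times as follows. For the later against the earlier change, cortex had 2, with 1 at a minimum mean of 100 (fewer genes tested) and 5 under quantile normalization. Hippocampus had 3, with 6 under quantile normalization, 1 without the trend and 1 to 5 with a library left out. Olfactory bulb had 1, with 2 at pseudocount 8, with array weights, in edgeR and in DESeq2, 0 without the trend and 0 to 2 with a library left out. From P7 to P14 hippocampus had 8, and 4 under quantile normalization, where Apoe (0.24), Lrp1 (0.18), Lrp4 (0.28), Vldlr (0.19) and Abcg1 (-0.99) lost their calls. From P1 to P7 olfactory bulb had 4, with 2 without the trend and 2 to 4 with a library left out.

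The sign changes under other settings were all of differences that missed the threshold in limma. For the later minus the earlier change these were, in cortex, Clu at 0.0445 (TMM), 0.0459 (median-ratio), 0.0295 (array weights), 0.0088 (edgeR), 0.0351 (DESeq2) and 0.0069 (without the 2 P14 libraries that hold Y-linked reads), and Lrp4 at -0.24 (quantile). In olfactory bulb they were Apoe at -0.35 and Lrp1 at -0.0772 (quantile) and Clu at -0.11 (edgeR) and -0.17 (DESeq2). From P1 to P7 in olfactory bulb, Abcg1 was -0.0482 (TMM), -0.21 (quantile) and -0.0138 (edgeR) and Lpl -0.13 (quantile). From P7 to P14 there, Vldlr was 0.0227 (TMM), 0.0138 (median-ratio), 0.0422 (edgeR) and 0.0184 (DESeq2). In cortex at P28, array weights gave Abca1 -0.0699, Clu 0.14, Lrp1 0.14 and Lrp4 0.021, TMM gave Clu 0.0025, the round of deposit as a covariate gave Apoe -0.14, and the first round alone gave Apoe -0.0202 and Vldlr 0.072. In hippocampus at P28, library number as a covariate gave Apoe 0.0129 and Lrp1 0.0301. That covariate marked only cKO replicate 4 and no control, so its differences repeat those with this library left out. Leaving out the library low in Rn45s gave Apoe 0.10, and quantile normalization gave Clu -0.17.

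With a library left out, the ranges that crossed 0 were as follows. From P1 to P7, Abcg1 spanned -0.0761 to 0.49 in cortex libraries. In hippocampal ones it spanned -0.45 to 0.0509, and for the bulb -0.15 to 0.14. Lpl spanned -0.20 to 0.53 in the bulb. For the later minus the earlier change in cortex, Apoe spanned -0.21 to 0.30, Clu -0.22 to 0.13 and Lcat -0.38 to 0.57, and in olfactory bulb Apoe -0.41 to 1.23 and Clu -1.18 to 2.22. At P28 in cortex, Abca1 spanned -0.0504 to 0.29, Apoe -0.12 to 0.37, Clu -0.0932 to 0.13, Lrp1 -0.15 to 0.15, Lrp4 -0.10 to 0.0361 and Vldlr -0.15 to 0.10. In hippocampus Abcg1 spanned -1.53 to 0.49, Apoe -0.30 to 0.10 and Lrp1 -0.18 to 0.0301, and in olfactory bulb Lcat -0.18 to 0.21 and Lrp1 -0.0566 to 0.12.

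Over all genes, 48 counts moved by over 1.5 times. At P28 the counts were 0 to 3 in cortex (1 in limma), 0 to 4 in hippocampus (0) and, for the bulb, 0 to 1 (0). In hippocampus from P1 to P7, array weights gave 5056 and a fit of those ages alone 4326 against 2092, and in olfactory bulb 4178 and 3514 against 1214, where DESeq2 gave 2260. The remaining moves came with a minimum mean of 100, a library left out, or the later against the earlier change. No paired analysis was possible because the labels carry no replicate numbers. edgeR and DESeq2 were not run for olfactory bulb at P28, where the check that recovered reads are whole was weak for cKO replicate 2, whose values lie close to whole numbers as deposited. Gabbr1 in cortex had an adjusted p of 0.0699 in limma without the trend. The low levels of Abcg1 and Lpl limit their precision.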
